A study of Caenorhabditis elegans with 4 samples.

Results

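The left arm of Caenorhabditis elegans chromosome II, bases 1 to 5093115 of genome build WS220, carried 819 of the 13662 LIN-61 binding peaks (5.99%) that the authors called for the whole series. A peak was placed in the arm when its centre fell within these bases, the leftmost of 3 equal parts of the chromosome, and the same rule gave 741 of 11744 peaks in the list of ChIP replicate 1 and 616 of 9436 in that of ChIP replicate 2. The animals were wild-type N2 worms, the standard laboratory strain, harvested as third-stage (L3) larvae from a population of males and hermaphrodites kept at 20 degrees Celsius. LIN-61 was precipitated with an affinity-purified rabbit polyclonal antibody, SDQ3520, in 2 ChIP libraries, and 2 further libraries hold input DNA without precipitation. Whole larvae were used, so each peak averages over all tissues. Whether the replicates came from separate cultures is not said, and their spread may be technical.

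LIN-61 is a chromatin protein built of MBT repeats, a fold that reads methylated lysines, and it binds histone H3 methylated at lysine 9. In worms this mark is laid down by the methyltransferases MET-2 and SET-25, is found at silent genes and repeated DNA, and is most abundant on the outer arms of the autosomes, which lie near the nuclear envelope. LIN-61 belongs to the class B synthetic multivulva genes, which prevent ectopic vulval fates together with a redundant class of genes.

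LIN-61 peaks were dense on the left arm of chromosome II and sparse in the neighbouring centre of that chromosome. The combined list held 161 peaks per Mb on the left arm, against 62.0 in the centre, a ratio of 2.59. Replicate 1 had 145 peaks per Mb on the left arm and replicate 2 had 121, which averages 133 ± 17.4 (SD, n = 2). In replicate 1 the left arm was 2.81 times as dense as the centre, while replicate 2 put it 3.73 times as dense, and the mean ratio was 3.27 ± 0.66 (SD, n = 2). Combined peaks covered 10.05% of the left arm, replicate 1 peaks 8.69% and replicate 2 peaks 5.95%. In the centre the covered share was 2.87%, 2.21% and 1.38% in the same lists. Both replicates thus placed more peaks and more covered sequence on the arm than in the centre, by an amount well above the difference between the replicates. No test accompanies this or the other comparisons between stretches of the genome, because peaks of 1 library are not replicates and 2 ChIP libraries without an input peak list leave no samples to permute.

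The 2 arms of chromosome II were close in density. The combined list gave a ratio of left to right arm of 0.91, and each replicate gave 0.97. Set against the other 9 autosome arms pooled, the left arm of II had 0.81 times their density in the combined list and 0.84 ± 0.0091 times in the replicates (SD, n = 2). By peaks per Mb it stood at place 8 of the 10 autosome arms in the combined list and at place 7 in each replicate.

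Although the left arm of II was not among the denser arms, its peaks had high scores. The score is the authors' own value for each peak, and it is used here only to rank peaks within a list. The median score of left-arm peaks was 11.54 in the combined list, against 7.83 on the right arm of II, 6.43 in the centre of II and 8.61 on the other autosome arms pooled. In replicate 1 the median was 12.02 on the left arm and 7.89 on the other arms, and in replicate 2 it was 9.59 and 7.93. Among the 10 autosome arms the left arm of II came second in all 3 lists, after the left arm of III. Widths differed less. On the left arm the median width was 365 bp for combined peaks, 375 bp for replicate 1 and 317 bp for replicate 2, against 350, 334 and 311 bp on the other autosome arms.

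**Figure D1:**
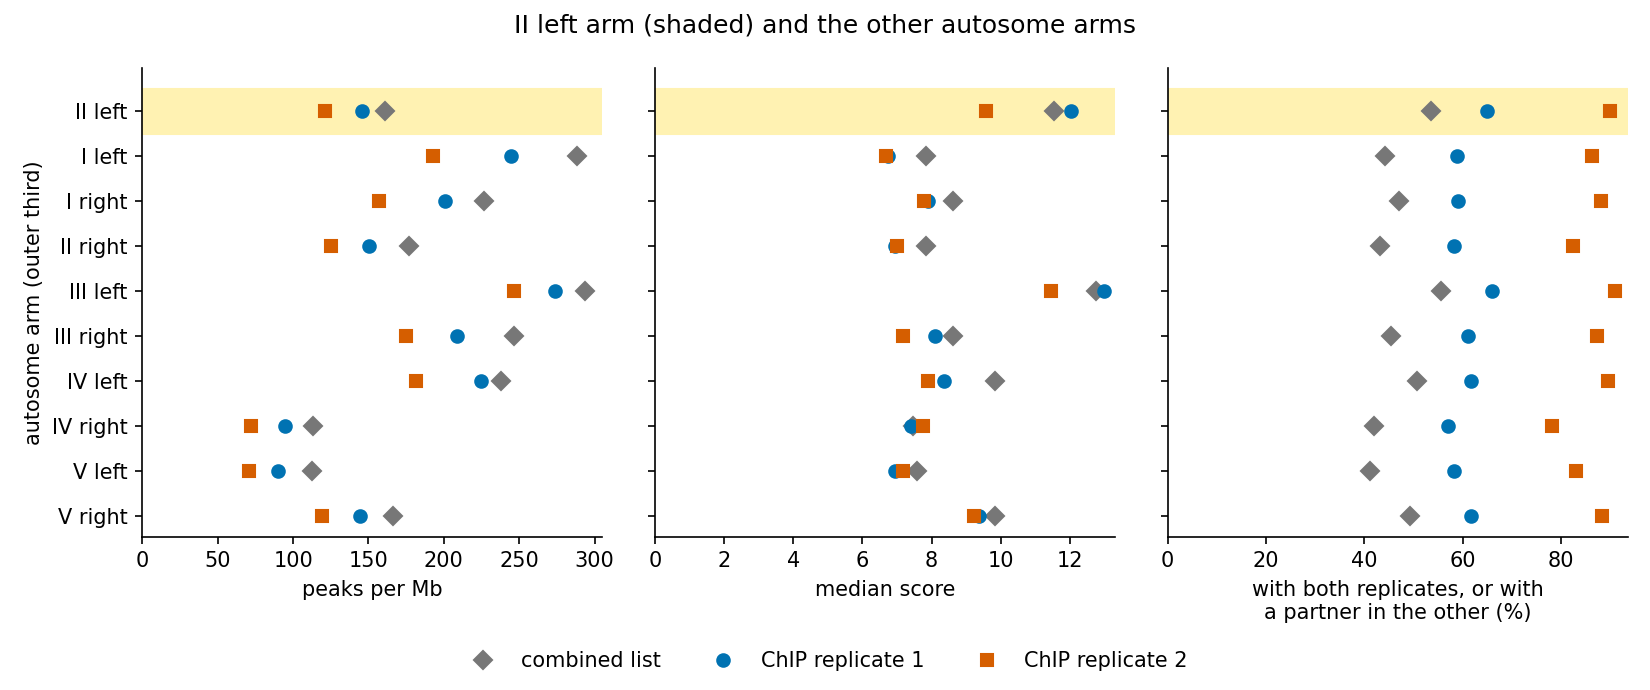
Each row is 1 arm of an autosome (the outermost of 3 equal parts on either side), with the left arm of II shaded, and the points give peaks per Mb, the median score and the percentage of peaks with support in the replicates (both replicates for the combined list, the other replicate for a replicate list). The left arm of II is 8th or 7th in density and 2nd in median score and in support in every list.

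How many combined peaks of the left arm met a peak in both replicates depended on the overlap asked for. By an overlap of at least 1 bp, 439 of the 819 combined peaks (53.6%, 50.2 to 57.0 as 95% Wilson interval) had a counterpart in each of them, where the background over the whole list was 45.3%. When each replicate had to cover 50% of the combined peak, the share on the left arm was 43.5%. Replicate 1 alone supported 201 peaks (24.5%, background 26.5%) and replicate 2 alone supported 49 (5.98%, background 7.86%). The remaining 130 (15.9%, 13.5 to 18.5) overlapped neither, where the background was 20.3%. The share with both replicates was 47.3% on the other autosome arms pooled, 43.2% on the right arm of II and 34.8% in its centre. The share with neither was 19.3% on the other autosome arms pooled. These intervals cover counting error only and take peaks as independent, which neighbours need not be. The median score also differed between the left arm and those stretches, and its part in the shares was not tested. The combined list covers the same 2 ChIP libraries, so overlap with their peaks is not independent support.

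From the side of the replicates, 481 of the 741 left-arm peaks of replicate 1 (64.9%, 61.4 to 68.3) had a partner in replicate 2, where the background was 59.1%. In replicate 2, 555 of 616 (90.1%, 87.5 to 92.2) had a partner in replicate 1, where the background was 85.0%. On the other autosome arms pooled, these shares were 60.7% for replicate 1 peaks and 87.1% for replicate 2 peaks. The authors' combined list took in 692 of the replicate 1 peaks (93.4%, background 92.6%) and 611 of the replicate 2 peaks (99.2%, background 98.3%).

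Support was far more common among strong and wide peaks. Combined scores come from the same 2 ChIP libraries as the replicate peaks, so this link is partly built in. The left-arm peaks were split by score into 4 classes of like size. In the weakest class, with scores of 1.43 to 5.42, 4 of 205 had both replicates (1.95%). In the second class it was 53 of 205 (25.9%), in the third 178 of 204 (87.3%), and in the strongest, with scores from 29.7 to 136.38, 204 of 205 (99.5%). Among peaks narrower than 200 bp, 2 of 155 had both replicates, whereas among those of at least 1000 bp it was 107 of 111. The smallest width was 146 bp in each of the 3 lists. The median score was 27.79 and the median width 631 bp for peaks with both replicates, which made up 79.0% of the summed width. For those with neither, the medians were 3.77 and 178 bp, and they made up 5.20%. Width and score went together, with a Spearman's rho of 0.71 over the 819 combined peaks, 0.74 in replicate 1 and 0.68 in replicate 2. A wide peak meets a partner more easily, and the parts of width and score were not separated.

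**Figure D2:**
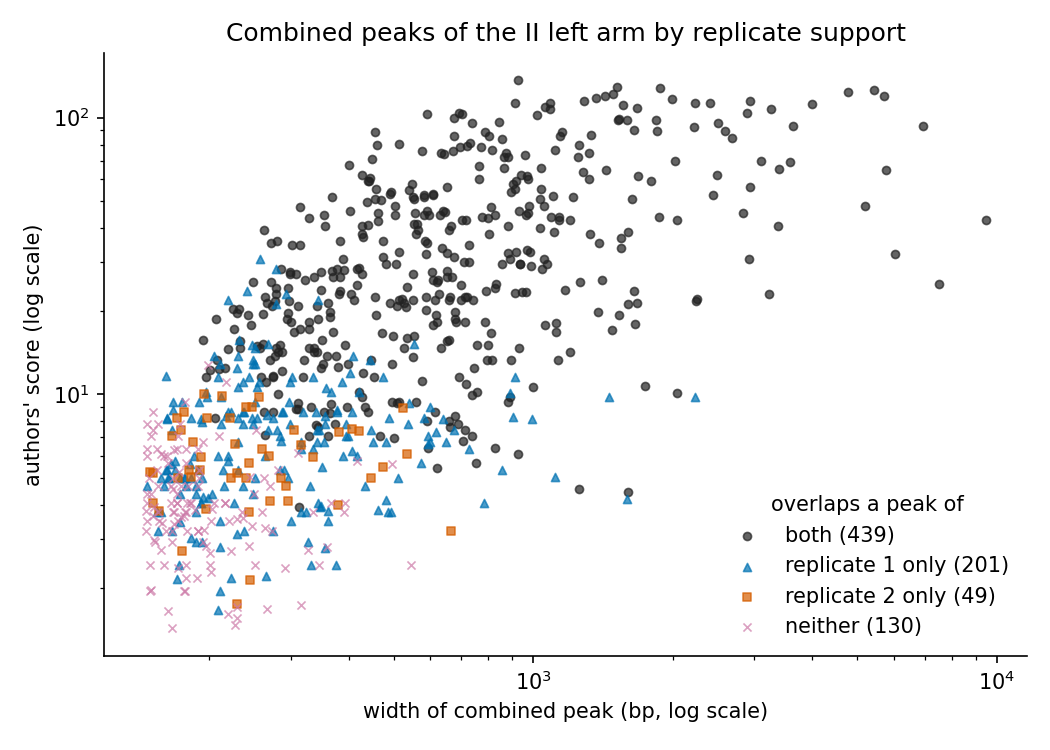
Each point is 1 of the 819 combined peaks on the left arm of II, by its width in bp and the authors' score, both on log scales. The 439 peaks with both replicates fill the wide and strong corner, and the 130 with neither lie at the narrow and weak end, none above a score of 12.74.

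The replicates ranked shared sites in a similar order. Over 458 pairs of overlapping left-arm peaks, each peak used once, the scores of the replicates had a Spearman's rho of 0.78. Over the 6612 such pairs of the whole lists, rho was 0.72. Both values describe the ranking of sites that come from the same 2 libraries, and neighbouring pairs share chromatin. The centres of paired peaks lay a median of 50 bp apart. Replicate 1 gave the wider peak in 362 of the pairs (79.0%), with a median width of 575.5 bp, against 363 bp in replicate 2.

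**Figure D3:**
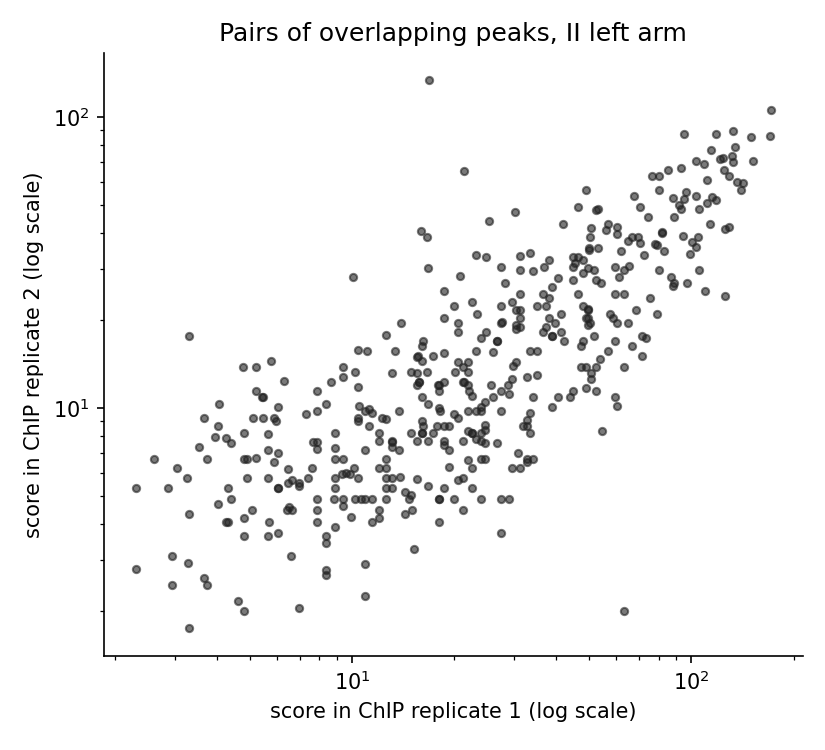
Each point is 1 of 458 pairs of overlapping peaks on the left arm of II, with the score in ChIP replicate 1 on the x axis and in ChIP replicate 2 on the y axis, both logarithmic. The points follow a rising band, with the pair scored 16.88 in replicate 1 and 133.62 in replicate 2 far above it and the pair scored 63.06 and 2 far below it.

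Along the arm, peaks were gathered in 2 broad blocks rather than towards the chromosome tip. The first Mb held 109 combined peaks, the second 245, the third 264, the fourth 121 and the fifth 71. Replicate 1 counted 93, 219, 245, 112 and 69 peaks in the same order, and replicate 2 counted 73, 172, 228, 91 and 49. The third Mb was highest in every list. It also had the highest median combined score of the 5 full windows of 1 Mb, 17. Of the 84 highest-scoring peaks of the arm it held 41, against 25 in the second Mb and 7 in the first. The single highest score, 136.38, lay in the first Mb. The share of peaks with both replicates was 62.1% in the third Mb, and among the 5 full windows of 1 Mb it was lowest in the fifth, at 42.3%. The outer part of the arm, up to its midpoint, held 62.3% of the combined peaks, 61.5% of replicate 1 peaks and 62.3% of replicate 2 peaks.

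The block from 1 to 1.6 Mb held 213 combined peaks, or 355 per Mb, and peaks covered 23.4% of it. The block from 2 to 3.1 Mb held 291 peaks, or 265 per Mb, and had 18.5% covered. It was not evenly filled, since its windows at 2300001 to 2400000 and 2600001 to 2700000 held 9 and 8 combined peaks, fewer than the 12 of the median 100-kb window. Between the blocks, the stretch from 1.6 to 1.9 Mb held 14 combined peaks, 11 of replicate 1 and 7 of replicate 2, and 1.39%, 1.02% and 0.72% of it was covered in these lists. The limits of these blocks were set after the profile had been seen. Together the blocks account for 27.4% and 39.8% of the covered sequence of the arm in the combined list.

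At a finer scale, the 5 windows of 100 kb with the most covered sequence all lay in these blocks. The first was the window from base 2200001 to 2300000, with 43.9% of its bases under combined peaks, 39.2% under replicate 1 peaks and 31.5% under those of replicate 2. It was followed by 1300001 to 1400000, covered to 37.6%, 37.7% and 24.0%. Both windows held the same rank in all 3 lists. Next came 1200001 to 1300000 (33.3%, 26.1% and 23.0%), 2400001 to 2500000 (33.1%, 30.1% and 21.1%) and 1100001 to 1200000 (26.4%, 23.0% and 14.0%). In the median window, combined peaks covered 6.05 kb, replicate 1 peaks 5.09 kb and replicate 2 peaks 2.95 kb. Of the 10 windows with the most covered sequence, 9 were common to the replicates, and over the 50 full windows the covered lengths of the replicates had a Spearman's rho of 0.97. Replicate 1 covered more than replicate 2 in 43 of the windows and replicate 2 covered more in 4.

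**Figure D4:**
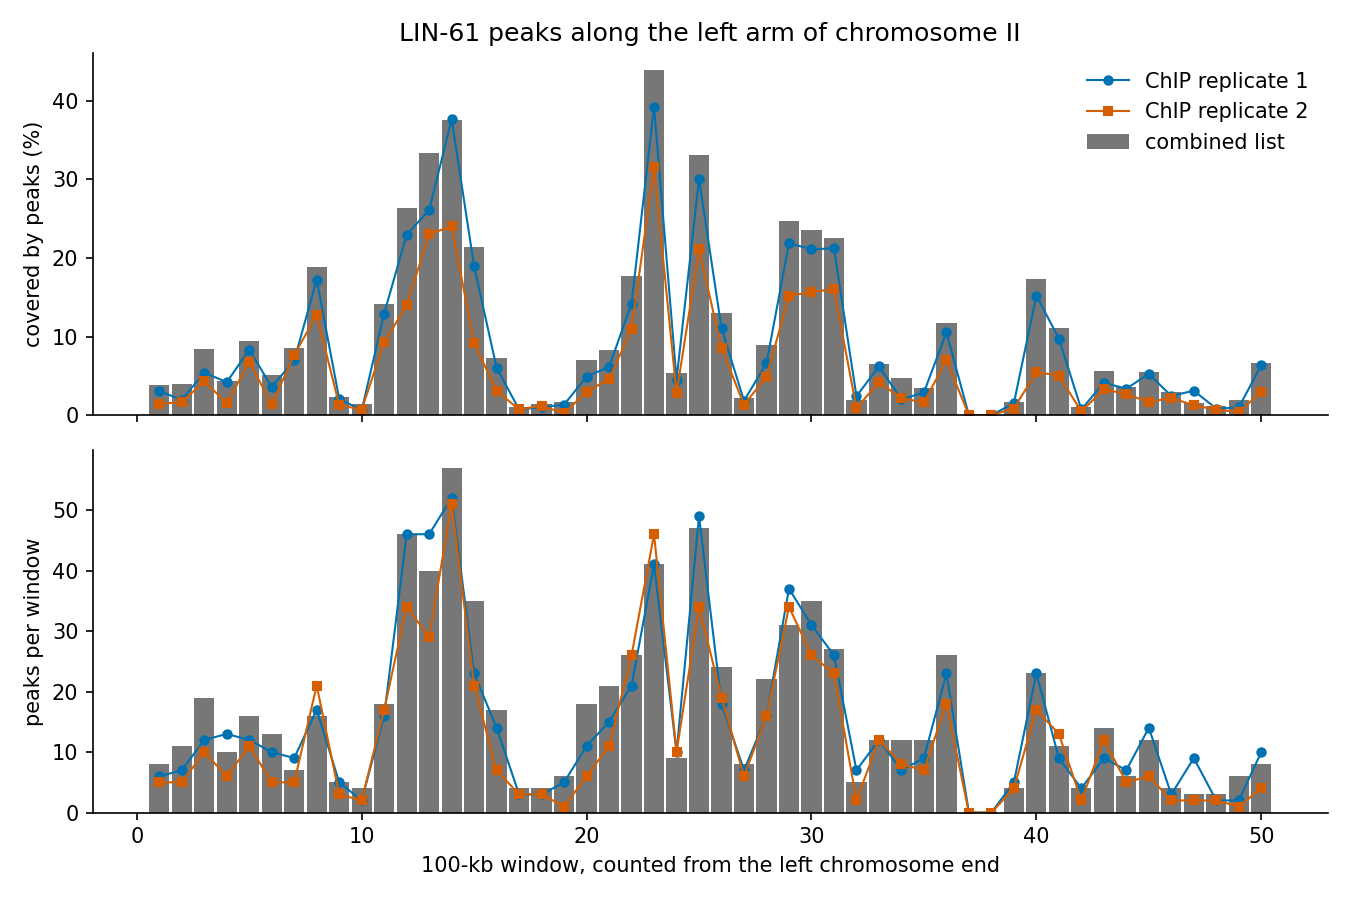
The upper panel gives the percentage of each 100-kb window covered by LIN-61 peaks and the lower panel the number of peaks, for 50 windows counted from the left end of chromosome II; bars are the combined list and points the replicates. Replicates rise and fall together, with maxima of 37.7% and 39.2% in replicate 1 and of 24.0% and 31.5% in replicate 2 at windows 14 and 23, and no peak of any list in windows 37 and 38.

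Over the arm as a whole, many peaks stood in close runs. On the left arm, 71.4% of combined peaks lay within 1 kb of a neighbour, as did 70.7% of replicate 1 peaks and 65.9% of replicate 2 peaks. The median gap between neighbours was 872 bp in the combined list, against 1168 bp on the right arm of II and 2504 bp in the centre. Replicate 1 had a median gap of 881 bp on the left arm and 1586 bp in the centre, and replicate 2 had 1063 bp and 6556 bp, so the size of this difference depends on the library. Joining neighbours at gaps of at most 1 kb gave 383 runs, of which 234 were single peaks, while 33 runs of 5 or more peaks held 290 of the 819 (35.4%). The runs and the share near a neighbour are given for the left arm only, so they do not set it apart from other arms. The run with the most peaks spanned 32180 bp, from 1323226 to 1355405, with 29 combined peaks that covered 72.5% of it. Replicate 1 had 27 peaks there (72.1% covered) and replicate 2 had 31 (51.6%). The next runs lay at 2451101 to 2477817, with 20 combined peaks over 26717 bp, and at 2432594 to 2448970, with 18 over 16377 bp.

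The longest stretch without a combined peak ran over 240328 bp, from 3567857 to 3808184. Replicate 2 had no peak inside it, with its own empty stretch at 3567828 to 3808223 (240396 bp). Replicate 1 was empty from 3555529 to 3808179 (252651 bp), and its peak at the right edge only reached into the combined stretch. This was the longest peak-free stretch of the 10 autosome arms in the combined list and in replicate 1, and the second longest in replicate 2. The next in the autosome arms was 217444 bp in the combined list. Just beyond it, the third longest stretch on the arm, 3815951 to 3908193, was empty in all 3 lists. The second longest, 2059726 to 2155377, had 1 peak of each replicate within it or at its edge. The lists hold no read coverage, so they show only that no peak was called in this stretch.

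The 10 strongest left-arm peaks with both replicates had scores of 117.08 to 136.38 and widths of 927 to 5702 bp, and 6 of them lay between 2 and 3.1 Mb. The highest score belonged to a compact peak of 927 bp at 732125 to 733051, with a score of 136.38. It corresponded to 1 peak in each replicate, of 620 bp and score 171.29 in replicate 1, where it ranked 1 on the arm, and of 515 bp and score 105.75 in replicate 2, where it ranked 2.

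The second, at 2455527 to 2457041, had a combined score of 128.99. Replicate 1 ranked it 3 (151.65) and replicate 2 ranked it 16 (70.55). It lies within the run of 20 peaks described above. The third, at 2054444 to 2056322, had a combined score of 128.06, with 132.51 from replicate 1 and 89.82 from replicate 2. This peak had almost the same extent in the replicates, 1824 bp and 1830 bp. The fifth, at 2920860 to 2925630, spanned 4771 bp with a score of 123.47, and was 1 peak of 4625 bp in replicate 1 but 3 peaks in replicate 2. The sixth, at 3510833 to 3512317, scored 121.65. Its best rank was 19 in replicate 1 and 4 in replicate 2.

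A pair of peaks shared the seventh place with a score of 119.82. One was a peak of 1430 bp at 2240360 to 2241789, with 132.51 in replicate 1 and 70.19 in replicate 2. The other was the widest of the set, 5702 bp at 2876131 to 2881832, which replicate 1 broke into 6 peaks and replicate 2 into 7. The last 2 of the set were at 460363 to 461725 (117.99) and 2193927 to 2195921 (117.08), and both ranked 22 or better in each replicate.

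The fourth of the set was a site on which the replicates disagreed. The combined peak at 1234550 to 1239992, 5443 bp wide with a score of 125.97, matched a single peak of 7043 bp in replicate 2, at 1233490 to 1240532, with the highest score of that list on the arm, 133.62. In replicate 1 it matched 4 separate peaks with a summed width of 2480 bp, and the best of them scored 16.88 and ranked 296 of 741. The run of combined peaks around it, 1233104 to 1247241, was covered to 44.3% in replicate 1 and to 88.9% in replicate 2, although replicate 1 covered more of the arm as a whole. The place of this peak among the strongest therefore rests on 1 library. Each combined peak was also given the rank of the best peak it touched in each replicate. These ranks were taken as percentages of the number of left-arm peaks in each replicate list. The 5 combined peaks on which these percentages differed most, chosen after their values were seen, all ranked higher in replicate 1. The first of them, 321 bp at 1330594 to 1330914 with a combined score of 26, lay at the end of a replicate 1 peak of 3712 bp that ranked 14, and matched a replicate 2 peak of 249 bp that ranked 439 of 616. Most of that replicate 1 peak lay outside the combined peak, so its rank does not measure this site alone.

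Wide peaks carried much of the covered sequence. The 82 widest combined peaks of the left arm made up 39.4% of the summed width, and 36 peaks reached 2000 bp. The count of such peaks was 28 in replicate 1 and 13 in replicate 2. The widest was 9458 bp, at 2278619 to 2288076, with a score of 42.73, place 149 on the arm. The replicates each had 4 peaks there, the longest of 6313 bp in replicate 1 and of 6461 bp in replicate 2. A peak of 7494 bp at 4050169 to 4057662 followed, with a score of 25.05, which was 2 peaks in replicate 1 and 8 in replicate 2. The third, 6934 bp at 723809 to 730742, scored 93.18 and lay 1382 bp from the strongest peak of the arm. The fourth was 6026 bp at 712665 to 718690, with a score of 32.2, and the fifth 5782 bp at 1492938 to 1498719, with a score of 64.5. In all, 59 of the 819 combined peaks of the arm corresponded to several peaks in replicate 1, and 85 did so in replicate 2. The counts of wide and split peaks and the share of the widest were made for the left arm only. They do not set it apart from other arms.

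The outermost combined peak was at 29178 to 29511, with a score of 3.77 and no peak in either replicate, and the next, at 31970 to 32253 and 40755 to 41286, scored 15.05 and 20.66. Towards the centre, the last were at 5061535 to 5061785 and 5061890 to 5062036, with scores of 12.9 and 6. The former met a peak of replicate 1 only, and the latter met none in either replicate. The limit of the arm fell into a stretch without combined peaks, as the next was at 5178951 to 5179158, with a score of 2.67. A replicate 1 peak of the arm ended within this stretch, at 5074484. Any limit within this stretch would have given the same combined peaks.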

How the data were processed

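LIN-61 occupancy was measured by ChIP-seq. Per the labels' protocols, frozen, ground larvae were crosslinked in EGS (20 minutes) and then EGS with formaldehyde (10 minutes), sonicated, and made into PCR-amplified Illumina libraries. Per the file headers, the authors deposited MACS binding sites on WormBase WS220, each with a first base, a last base and a score, in 1 list per ChIP library and 1 combined list. Not given in the sources used here are the MACS version, threshold, control, aligner, read filters and how the combined list was made. The lists hold no read counts, so depth is unknown. The 2 mitochondrial peaks of replicate 1 were left out of overlaps.

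Samples were grouped by title. Each chromosome was taken to end where its last peak ended, and arms were the outer 2 of 3 equal parts. Overlap, merging and coverage were checked against brute force on simulated peaks. Gene names and sequences are not given, since no WS220 annotation or genome was used. Regions were named by a rule: the 10 strongest with both replicates, the 5 widest, the 3 strongest with neither, the 5 most covered windows, the 3 longest gaps and the 3 runs with most peaks. Members, lists and rules were chosen with earlier results of these data known. Alternatives were other overlaps, stronger or merged peaks, other limits, covered length and single replicates. Python 3.11.15, numpy 2.4.6, pandas 2.3.3, scipy 1.17.1 and matplotlib 3.10.9 were used.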

Additional observations from a re-analysis of the deposited data

How the results depend on the processing

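The left arm of II was denser than the centre of II, and less dense than the other autosome arms pooled, under all alternatives run. Its density, 161 peaks per Mb, was 95.6 for peaks at or above the median score, 75.2 with peaks within 1 kb merged and 187 for bases 1 to 3819836 alone. The ratio to the centre, 2.59, became 3.83 for the stronger peaks, 3.50 for covered length and 2.03 for merged peaks. The ratio to the other arms, 0.81, was 0.92, 0.79 and 0.79 for stronger peaks, merged peaks and covered length. The median width was 556 bp for stronger and 690 bp for merged peaks. The share in the outer part of the arm, 62.3%, was 52.0% for merged peaks and 65.1% for covered length. The share near a neighbour was 56.5% at 500 bp, 82.7% at 2 kb and 61.4% for stronger peaks. The share with both replicates was 43.5% with 50% of the peak covered and 84.8% for stronger peaks. Partners of replicate 1 peaks went to 45.2% with 50% of both peaks overlapping, 71.9% at equal list size and 71.0% merged. For replicate 2 peaks the values were 54.4%, 87.0% at equal list size and 93.3% for stronger peaks. The score correlation was 0.72 in the stronger peaks. Filters and merging lower counts by construction, and other causes were not tested. In single replicate lists, density lay between 121 and 145, the ratio to the centre between 2.81 and 3.73, the ratio to other arms between 0.83 and 0.85, the median width between 317 and 375 bp, the median score between 9.59 and 12.02, the outer share between 61.5% and 62.3%, and the share near a neighbour between 65.9% and 70.7%. No paired analysis was possible because input libraries carry the same replicate numbers but no peak list of theirs was analysed here. Gene and sequence content was not run for want of a WS220 annotation. Unknown depth limits what the smaller replicate 2 list can show.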

Other observations

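Some left-arm sites were strong in 1 list and absent from another, and they were picked out after their values had been seen. In replicate 2, a peak of 658 bp at 1246601 to 1247258 scored 86.28, rank 6 of 616 on the arm, without a partner in replicate 1, whereas the next such replicate 2 peak scored 8.7. It stands at the end of the run from 1233104 to 1247241, where replicate 2 also had its highest score on the arm. No replicate 2 peak anywhere in the genome without a replicate 1 partner scored higher. The strongest replicate 1 peak on the arm without a partner in replicate 2, at 1299704 to 1299967, scored 38.91 and ranked 145 of 741.

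The strongest replicate 1 peak without a combined peak, at 4308324 to 4308912, scored 24.62, which was the highest such value in the whole of that list. Replicate 1 also had a peak on the first 173 bases of the chromosome, with a score of 5.1, which neither other list had. Of the combined peaks without either replicate, the strongest scored 12.74 at 1712296 to 1712494, in the sparse stretch between the blocks. The next were at 4855377 to 4855593 (11.1) and 4305678 to 4305854 (9.38).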
